A study of Homo sapiens with 6 samples.

Results

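The Tribbles pseudokinases TRIB1, TRIB2 and TRIB3 and the CCAAT/enhancer-binding proteins CEBPA, CEBPB and CEBPD were followed in HK2 cells, an immortalized human line of proximal tubular epithelium. The 6 genes were taken by their symbols from 38100 genes, and all 6 were among the 17720 genes with enough counts to be tested. RNA-seq had been performed on cells that carried a control adenovirus without an insert (AdCtrl) or an adenovirus for SIRT4 (AdSIRT4), a sirtuin known mainly from mitochondria. Every sample of both groups was stimulated with TGF-β1, so that each fold change compares AdSIRT4 with TGF-β1 against AdCtrl with TGF-β1, and cells without virus or without TGF-β1 were not analysed here. Each group held 3 samples of the same cell line, and since n in vitro stands for technical replicates in the study, SDs and p-values may describe technical spread only. The cell-line label carries a running number after HK, whereas all titles name HK2.

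Tribbles proteins have a kinase fold with little or no catalytic activity and work as scaffolds. TRIB1 and TRIB2 bring the ubiquitin ligase COP1 to C/EBPα, which is then degraded, and TRIB3 is a stress-induced target of ATF4 and CHOP that binds AKT. C/EBP factors are basic leucine zipper proteins that bind DNA as dimers: C/EBPα is linked to differentiation, and C/EBPβ and C/EBPδ to inflammation and the acute-phase response. The link of TRIB1 and TRIB2 to C/EBPα named here lies in protein stability, which RNA-seq does not measure. In bulk RNA, fewer cells that express a gene and less RNA per cell cannot be told apart.

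RefSeq sequence upstream of the transcript starts (GRCh38.p14) was searched because the 3 C/EBP genes had like patterns across samples, as given further on. It held windows of 250 bases for 4 of the 6 genes, 7 windows in all: CEBPA, CEBPB, TRIB2 and TRIB3. No window of these 4 genes contained the C/EBP pattern TTGCNNAA, which 9.05% of all 35116 windows of that length hold on either strand. The composite C/EBP-ATF element TGATGNAA, held by 3.14%, was absent too. Other forms of the C/EBP site were not searched. All 7 windows contained the GC box GGGCGG, held by 42.64% of all windows. Their GC content was 75.6% to 81.2% against a median of 58.0%. The TRIB3 windows overlap over most of their length and hold the same 2 GC boxes, so the 7 windows are not independent. The stretches of CEBPA and CEBPB upstream of annotated exons are shown 5′ to 3′ on the strand of the gene, with the GC box or its reverse complement CCGCCC in capitals. They were chr19:33302565-33302784 for CEBPA, which ends 30 bases before the RefSeq start, and chr20:50190333-50190582 for CEBPB.
CEBPA: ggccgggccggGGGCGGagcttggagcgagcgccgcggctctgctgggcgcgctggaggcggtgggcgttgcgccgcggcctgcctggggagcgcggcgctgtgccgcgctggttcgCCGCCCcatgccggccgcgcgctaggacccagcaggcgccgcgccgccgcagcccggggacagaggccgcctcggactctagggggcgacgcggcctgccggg
CEBPB: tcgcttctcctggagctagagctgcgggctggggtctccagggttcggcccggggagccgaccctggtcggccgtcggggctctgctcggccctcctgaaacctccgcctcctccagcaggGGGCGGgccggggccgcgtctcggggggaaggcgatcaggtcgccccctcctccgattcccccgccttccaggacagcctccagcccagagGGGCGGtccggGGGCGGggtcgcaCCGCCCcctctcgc

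CEBPA and CEBPB also had the TATA box TATAAA, held by 10.72% of all windows, 24 bases before the RefSeq start of CEBPA and 23 bases before the second start of CEBPB. No TRIB3 window held it, and the stretch shown for TRIB3, with 2 GC boxes, ends 59 bases before a RefSeq start. That stretch lies inside the annotated span of TRIB3 (380760 to 397559), downstream of the first base of the span. These short stretches are shown for the boxes named, with the TATA box in capitals in CEBPA (chr19:33302547-33302576, minus strand) and CEBPB (chr20:50190789-50190818) and the GC boxes in capitals in TRIB3 (chr20:381206-381235). A match of letters describes the window and does not show that a factor was bound.
CEBPA: cggcctgccgggTATAAAagctgggccggc
CEBPB: acgggccgccctTATAAAtaaccgggctca
TRIB3: ggccgggGGGCGGgaggGGGCGGccgggga

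In GRCh38, TRIB1 (Entrez Gene 10221) lies on chromosome 8 (125430358 to 125438403, plus strand), TRIB2 (28951) on chromosome 2 (12716936 to 12742734, plus strand) and TRIB3 (57761) on chromosome 20 (380760 to 397559, plus strand). CEBPA (1050) lies on chromosome 19 (33299934 to 33302534, minus strand), CEBPB (1051) on chromosome 20 (50190583 to 50192690, plus strand) and CEBPD (1052) on chromosome 8 (47736913 to 47738164, minus strand). The coding transcripts of TRIB1 have 2 to 3 exons, those of TRIB2 3 and those of TRIB3 4 to 5, whereas CEBPA, CEBPB and CEBPD are genes of 1 exon without introns. CEBPA overlaps the antisense genes AC008738.3 and AC008738.5, and CEBPB overlaps CEBPB-AS1 over 231 bases of exon. It is not stated whether counting used strand, and without strand reads of a gene and its antisense partner cannot be told apart. CEBPB-AS1 itself was counted at 0.481 to 0.939 CPM.

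SIRT4 was measured at 0.57, 1.11 and 1.11 CPM (counts scaled to equal library totals, with TMM factors) in AdCtrl replicates 1, 2 and 3 and at 51.2, 92.7 and 84.0 CPM in AdSIRT4 replicates 1, 2 and 3, which matches the labels. It passed the adjusted threshold in 15 of 18 fits, the exceptions being the 3 fits that left out an AdCtrl sample. RNA from the virus and from the cells' own gene cannot be told apart in these counts. The total counts were 41537353 to 85684748 per sample. AdSIRT4 replicate 1 stood apart from the other 5 libraries. Measured as the difference from the mean of the other replicates of its group, the shortest 10% of genes were 0.71 higher in it on the log2 scale (median) and the longest 10% were 0.68 lower. Across 15894 genes the Spearman correlation of this difference with gene length was -0.66, against -0.20 to 0.21 in the AdCtrl libraries. It was 0.57 and 0.60 in AdSIRT4 replicates 2 and 3, whose difference is taken in part from replicate 1. The chi-square per gene was 129 and 173 between replicate 1 and replicates 2 and 3, and 13.2 between replicates 2 and 3. The log2 fold changes of the 6 genes, their ratios and the list medians are therefore also given without AdSIRT4 replicate 1, and with the trend over gene length removed from each library. Of 19 markers of proximal tubular epithelium, 12 had a mean of at least 1 CPM, led by KRT8, CDH6, KRT18 and PAX8, and their summed level was 2747 to 2831 CPM in AdCtrl and 2657 to 2870 CPM in AdSIRT4. The defining markers LRP2 and HNF4A were at or near 0, at no more than 0.116 CPM. Fibroblast markers (2 of 7 at 1 CPM or more) summed to 41.7 to 45.1 CPM in AdCtrl and 40.0 to 40.8 in AdSIRT4, with COL3A1 at 0. Immune markers (2 of 5, CD68 and CD14) summed to 34.4 to 39.8 and 38.6 to 49.5 CPM, with CD3E at 0. Endothelial (0 of 4) and podocyte (0 of 2) markers did not exceed 0.522 and 0.334 CPM in sum. The part of these cell types in the results was not tested.

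With all 6 samples, no Tribbles or C/EBP gene passed an adjusted p of 0.05, which 2 of 17720 genes passed (0.0113%). TRIB1 was higher and TRIB3 lower in each AdSIRT4 sample than in any AdCtrl sample, by 1.33-fold and to 0.724-fold on average. Of all genes, 9.66% were higher and 9.77% lower in this way. TRIB1 and TRIB3 were also the 2 of 6 genes with an unadjusted p under 0.05, against 7.93% of all genes. CEBPB and CEBPD, the inflammatory C/EBP factors, were lower in AdSIRT4 replicates 2 and 3 but not in replicate 1. Without that replicate 3 of 6 genes passed: TRIB1 rose, and CEBPB and CEBPD fell. In the same fit 6.71% of all genes passed (3.37% higher and 3.34% lower).

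To compare levels between the genes, FPKM were used, which are per gene length. CEBPD had the highest level, at 140.0 ± 1.89 FPKM (SD, n = 3) in AdCtrl and 117.0 ± 31.9 in AdSIRT4. CEBPB followed with 79.6 ± 7.02 FPKM in AdCtrl and 63.3 ± 9.06 in AdSIRT4. TRIB3 came next with 47.1 ± 9.98 FPKM and 33.3 ± 4.29. TRIB1 had 23.3 ± 1.09 FPKM and 30.1 ± 2.10. CEBPA was found at 5.21 ± 0.111 and 4.59 ± 0.432 FPKM, and TRIB2 at 0.545 ± 0.0357 and 0.517 ± 0.0924. The ranges of neighbours in this order did not overlap in either group, with the exception of TRIB3 and TRIB1 in AdSIRT4, whose ranges overlapped (30.1 to 38.2 FPKM and 27.7 to 31.5). By mean FPKM, CEBPD lay at percentile 97.8 of the tested genes, CEBPB at 95.5, TRIB3 at 91.4, TRIB1 at 86.5, CEBPA at 52.1 and TRIB2 at 24.4. CEBPD and CEBPB were thus among the most abundant transcripts of these cells, and TRIB2 among the scarce ones.

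**Figure D1:**
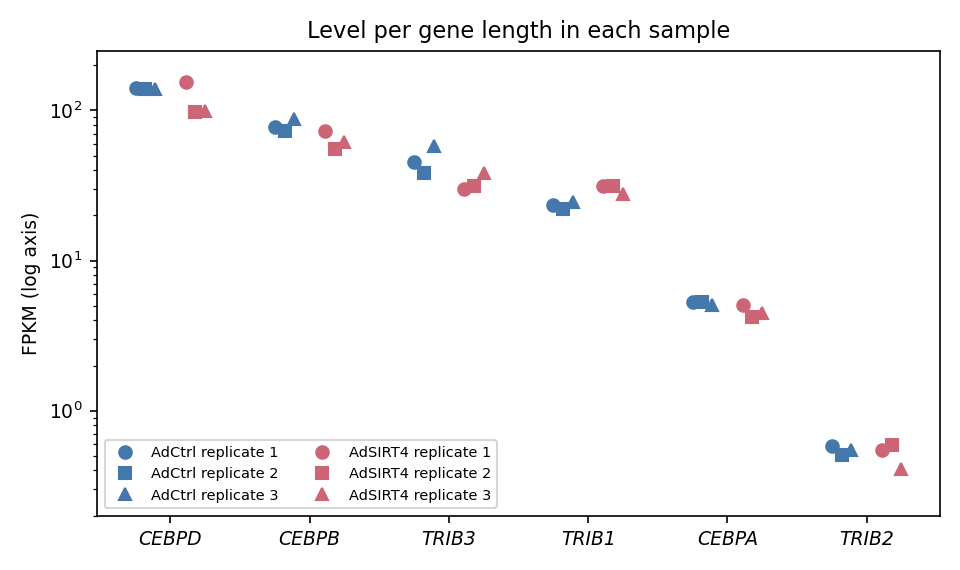
Level per gene length (FPKM, log axis) of the 6 genes in each sample, ordered by mean level, with AdCtrl in blue, AdSIRT4 in red and 1 marker shape per replicate number. The points run from 154 FPKM for CEBPD in AdSIRT4 replicate 1 down to 0.412 FPKM for TRIB2 in AdSIRT4 replicate 3, and TRIB1 and TRIB3 lie closer to each other in AdSIRT4 than in AdCtrl.

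TRIB1, the scaffold that directs COP1 to C/EBPα, was measured at 95.6, 93.3 and 96.1 CPM in AdCtrl replicates 1, 2 and 3 and at 138.3, 128.4 and 111.7 CPM in AdSIRT4 replicates 1, 2 and 3. The coefficient of variation was 1.59% in AdCtrl and 10.7% in AdSIRT4, and every AdSIRT4 sample lay above all AdCtrl samples. The mean level was 95.0 ± 1.51 CPM (SD, n = 3) in AdCtrl and 126.1 ± 13.4 CPM in AdSIRT4. On the log2 scale this was a difference of 0.41 ± 0.106 (SE), and edgeR's quasi-likelihood test gave an adjusted p of 0.494 (0.00605 unadjusted). Groups were higher in AdSIRT4 without overlap for 9.66% of all genes. When AdSIRT4 replicate 1, the highest sample, was left out, the difference was 0.33 ± 0.0635 (SE), with an adjusted p of 0.0143. With the length trend removed it was 0.42 (adjusted p 0.142), and DESeq2, in which 1.16% of all genes passed, gave 0.41 with an adjusted p of 0.0471. Over all 18 fits, this one and 17 alternatives, the adjusted p of TRIB1 ran from 0.00902 to 0.971 and the log2 fold change was positive in 18 of 18.

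TRIB3, which binds AKT and is induced by ATF4 and CHOP, was measured at 121.1, 105.1 and 149.4 CPM in AdCtrl and at 87.3, 84.1 and 100.8 CPM in AdSIRT4. Here the AdSIRT4 samples lay below all AdCtrl samples, although AdSIRT4 replicate 3 and AdCtrl replicate 2 were close. The mean was 125.2 ± 22.4 CPM (SD, n = 3) in AdCtrl and 90.7 ± 8.84 CPM in AdSIRT4. The log2 difference was -0.46 ± 0.151 (SE), and the adjusted p was 0.555 in edgeR (0.0177 unadjusted). For 9.77% of all genes the groups were lower in AdSIRT4 without overlap. The value was nearly the same without AdSIRT4 replicate 1, at -0.44 (adjusted p 0.193), and with the length trend removed, at -0.50 (adjusted p 0.242). Without AdCtrl replicate 3, the highest sample, it was -0.32. The adjusted p ran from 0.0384 to 0.971 over 18 fits. Replicate 3 was the highest sample of TRIB3 in both groups and replicate 2 the lowest in both, and with the replicate number as a block the unadjusted p was 0.00686 and the adjusted p 0.667.

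TRIB2, the paralog closest in role to TRIB1, was measured at 2.89, 2.59 and 2.57 CPM in AdCtrl and at 2.95, 2.90 and 2.02 CPM in AdSIRT4, on 110 to 250 counts per sample. The groups overlapped. The mean was 2.68 ± 0.177 CPM (SD, n = 3) in AdCtrl and 2.62 ± 0.525 CPM in AdSIRT4. The log2 difference was -0.037 ± 0.195 (SE; adjusted p 0.953). It took either sign when 1 sample was left out (-0.13 to 0.12, with -0.13 without AdSIRT4 replicate 1), and was 0.013 with the length trend removed. The standard error was the largest among the Tribbles genes.

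CEBPD, an early factor of the inflammatory response, was measured at 202.9, 203.7 and 190.3 CPM in AdCtrl and at 237.4, 139.3 and 139.4 CPM in AdSIRT4. AdSIRT4 replicate 1 was the highest of all 6 samples, and replicates 2 and 3 were the lowest. The mean was 199.0 ± 7.50 CPM (SD, n = 3) in AdCtrl and 172.0 ± 56.6 CPM in AdSIRT4. The log2 difference was -0.21 ± 0.217 (SE; adjusted p 0.789). Leaving out AdSIRT4 replicate 1 gave -0.52 ± 0.0540 (SE), a level of 0.698-fold, with an adjusted p of 0.000719, whereas leaving out AdSIRT4 replicate 2 or 3 gave -0.073 and -0.080. With the length trend removed the levels were 206.1, 210.7 and 201.5 CPM in AdCtrl and 177.9, 148.9 and 155.6 CPM in AdSIRT4. The groups then did not overlap, and the log2 difference was -0.36 (adjusted p 0.145, 0.00256 unadjusted). In that fit 14.1% of all genes had an unadjusted p under 0.05. How many of all genes did not overlap with the trend removed was not counted. Over all 18 fits the adjusted p ran from 0.000719 to 0.971.

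CEBPB, which activates IL6 and acute-phase genes, was measured at 165.2, 158.6 and 176.7 CPM in AdCtrl and at 166.5, 115.7 and 128.2 CPM in AdSIRT4. AdSIRT4 replicate 1 lay within the AdCtrl samples, and replicates 2 and 3 lay below them. The mean was 166.9 ± 9.15 CPM (SD, n = 3) in AdCtrl and 136.8 ± 26.4 CPM in AdSIRT4. The log2 difference was -0.29 ± 0.149 (SE; adjusted p 0.692). From replicates 2 and 3 alone it was -0.46 ± 0.0638 (SE), a level of 0.728-fold, with an adjusted p of 0.00377, whereas leaving out AdSIRT4 replicate 2 gave -0.17. With the length trend removed the levels were 167.4, 162.1 and 182.5 CPM in AdCtrl and 138.6, 120.9 and 137.3 CPM in AdSIRT4. The groups again did not overlap, which was not counted over all genes (log2 difference -0.37, adjusted p 0.144, 0.00230 unadjusted). The range of the adjusted p over 18 fits was 0.00377 to 0.971.

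CEBPA, the factor of differentiation and the known substrate of TRIB1 and TRIB2 with COP1, was measured at 15.6, 16.1 and 14.5 CPM in AdCtrl and at 16.3, 12.5 and 13.1 CPM in AdSIRT4. Replicate 1 was again the highest AdSIRT4 sample, and the groups overlapped. The mean was 15.4 ± 0.802 CPM (SD, n = 3) in AdCtrl and 14.0 ± 2.03 CPM in AdSIRT4, a log2 difference of -0.15 ± 0.128 (SE; adjusted p 0.770). It was -0.27 without AdSIRT4 replicate 1 (adjusted p 0.0685, range 0.0398 to 0.971 over 18 fits), -0.065 without AdSIRT4 replicate 2 and -0.18 with the length trend removed (adjusted p 0.417). A two-sided exact permutation test on CPM, which cannot go below 0.1 with 3 samples against 3, gave p = 0.1 for TRIB1 and TRIB3, 0.3 for CEBPB, 0.4 for CEBPA and CEBPD and 1 for TRIB2.

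**Figure D2:**
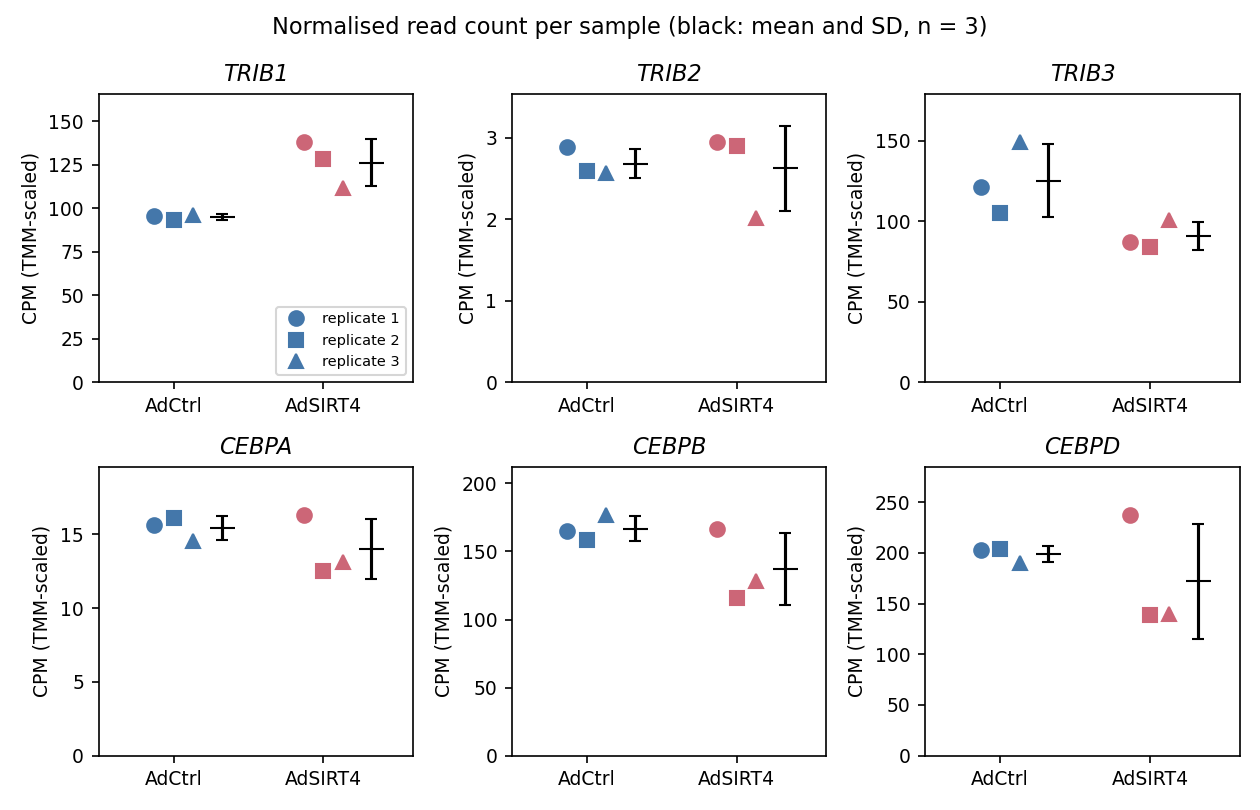
Normalised read count (CPM) of each gene in the 3 AdCtrl samples (blue) and the 3 AdSIRT4 samples (red), with 1 marker shape per replicate number and the mean and SD in black. TRIB1 is higher and TRIB3 lower in AdSIRT4 without overlap, and the AdSIRT4 replicate 1 circle of CEBPA, CEBPB and CEBPD lies above replicates 2 and 3.

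The excess of AdSIRT4 replicate 1 was larger in the shorter C/EBP genes. CEBPD (1.43 kb) was 0.77 higher on the log2 scale in replicate 1 than in the mean of replicates 2 and 3, and genes of similar length were 0.49 higher (median). CEBPB (2.12 kb) was 0.45 higher against 0.31 for genes of similar length, and CEBPA (2.99 kb) was 0.35 higher against 0.20. TRIB3 (2.69 kb) differed by -0.077 where genes of similar length were 0.20 higher. TRIB1 (4.12 kb) and TRIB2 (4.99 kb) were 0.21 and 0.28 higher where the medians were -0.026 and -0.15. In the 3 C/EBP genes the difference had the sign of the median of genes of like length, and in the Tribbles genes the opposite sign. How far the length trend accounts for the level of a given gene was not tested.

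**Figure D3:**
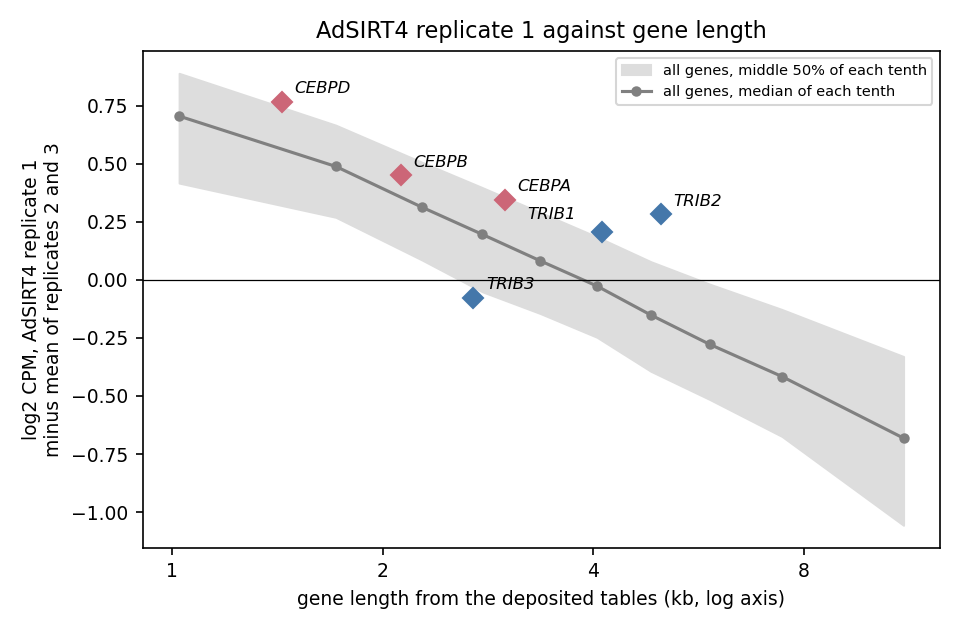
Difference in log2 CPM between AdSIRT4 replicate 1 and the mean of replicates 2 and 3 against gene length (kb, log axis), for the 6 genes (diamonds, C/EBP in red and Tribbles in blue) and for all genes in 10 bins of length (grey line: median, band: middle 50%). The line falls from 0.71 to -0.68, and all genes of the 6 but TRIB3 lie above the line.

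With the length trend removed, 4 of 6 genes had an unadjusted p under 0.05 (TRIB1 higher, and TRIB3, CEBPB and CEBPD lower), as had 14.1% of all genes, and none passed the adjusted threshold, which 0.0677% of all genes passed. With the replicate block TRIB1 had a log2 fold change of 0.40, TRIB3 of -0.45, CEBPB of -0.30 and CEBPD of -0.26, and no gene of the 6 passed, against 0.00564% of all genes. In voom with sample quality weights, which give each library its own weight, 5 of 6 genes passed, with TRIB1 rising and TRIB3, CEBPA, CEBPB and CEBPD falling, but so did 8.16% of all genes. The direction of TRIB1, TRIB3, CEBPA, CEBPB and CEBPD was the same in all 18 fits for each, and that of TRIB2 was not.

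**Figure D4:**
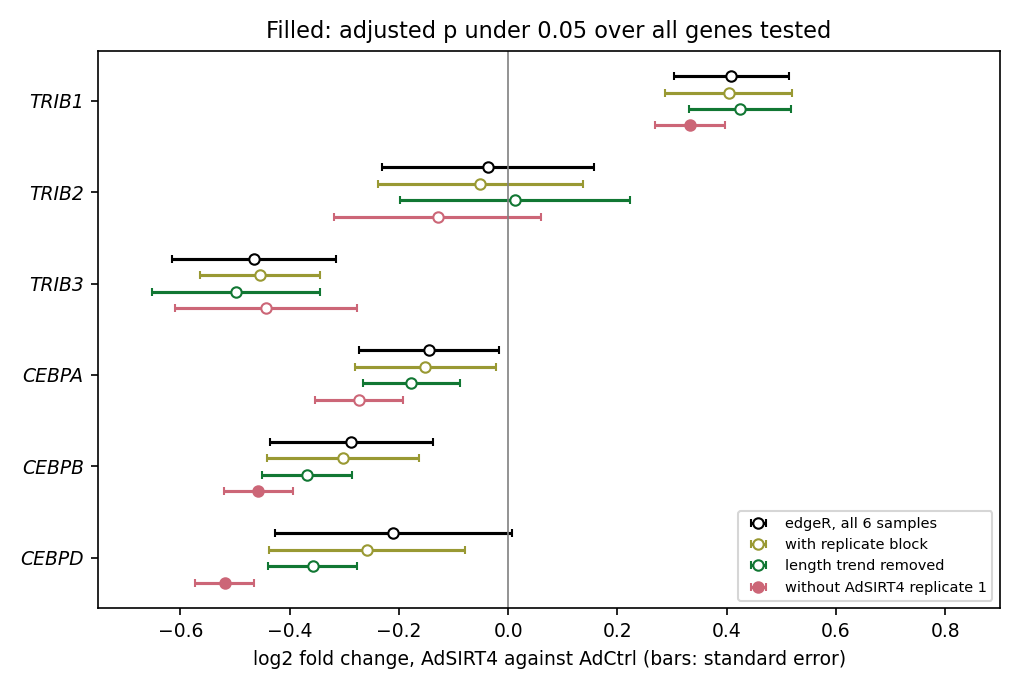
Log2 fold change of AdSIRT4 against AdCtrl (bars: standard error) for each gene in 4 fits, with filled points for an adjusted p under 0.05. Filled points appear only for TRIB1, CEBPB and CEBPD without AdSIRT4 replicate 1, and CEBPD moves from -0.21 with all samples to -0.52 without that replicate.

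To describe how the genes moved against each other, ratios of FPKM were formed within each sample for 5 pairs. The pair of TRIB1 and CEBPB joins the 2 families, and the other pairs are paralogs. TRIB1 to TRIB3 was 0.517, 0.580 and 0.421 in AdCtrl and 1.04, 0.999 and 0.726 in AdSIRT4. The log2 ratio was thus 0.86 higher in AdSIRT4 (two-sided exact permutation p = 0.1, the smallest possible, and 0.167 after Benjamini-Hochberg adjustment over the 5 pairs). TRIB1 went from 33.2% ± 3.52 (SD, n = 3) of the summed FPKM of the Tribbles genes in AdCtrl to 47.2% ± 4.73 in AdSIRT4, and TRIB3 from 66.0% ± 3.62 to 51.9% ± 4.89. The sum itself was 71.0 ± 11.1 FPKM and 63.9 ± 2.22 FPKM and overlapped between groups. TRIB1 to CEBPB was 0.298, 0.303 and 0.280 in AdCtrl and 0.427, 0.572 and 0.449 in AdSIRT4, a log2 difference of 0.71 (exact permutation p = 0.1, adjusted 0.167). TRIB1 to TRIB2 differed by 0.46 (exact permutation p = 0.1, adjusted 0.167). These 3 ratios did not overlap between groups, and all 3 share TRIB1. In FPKM, TRIB1 was higher and TRIB3 and CEBPB lower in each AdSIRT4 sample than in any AdCtrl sample. The outcome for TRIB1 to TRIB3 and for TRIB1 to CEBPB was thus fixed by these levels and is no separate test. With samples paired by replicate number, an exact sign-flip test gave p = 0.25 for each of the 3 ratios. That is the smallest p possible with 3 pairs. From AdSIRT4 replicates 2 and 3 alone the differences were 0.76, 0.79 and 0.49 in the same order, and with the length trend removed 0.91, 0.79 and 0.42.

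With all samples, neither ratio among the C/EBP genes separated the groups. CEBPB to CEBPA differed by -0.15 on the log2 scale (exact permutation p = 0.2, adjusted 0.25) and CEBPB to CEBPD by -0.045 (exact permutation p = 0.9). With the length trend removed the differences were -0.19 and -0.0070. From AdSIRT4 replicates 2 and 3 alone, the log2 ratio of CEBPB to CEBPA was 3.70 and 3.78, narrowly below the 3.79 to 4.10 of the AdCtrl samples (difference -0.19). That of CEBPB to CEBPD differed by 0.060. With 1 sample left out at a time, the CEBPB to CEBPA difference ran from -0.22 (without AdCtrl replicate 2) to -0.065 (without AdCtrl replicate 3). CEBPD made up 62.3% ± 2.01 (SD, n = 3) of the summed C/EBP FPKM in AdCtrl and 62.9% ± 3.22 in AdSIRT4, CEBPB 35.4% ± 2.13 and 34.6% ± 2.94, and CEBPA 2.32% ± 0.114 and 2.53% ± 0.297. The summed level was 224.8 ± 6.62 FPKM in AdCtrl, and 231.9, 157.3 and 165.4 FPKM in AdSIRT4 replicates 1, 2 and 3. The sum was lower in 2 of 3 AdSIRT4 samples than in any AdCtrl sample. In the same 2 samples CEBPA made up 2.69% and 2.71% of it, above the 2.20% to 2.43% of the AdCtrl samples, while it made up 2.19% in AdSIRT4 replicate 1.

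The other genes on the list of relatives were measured as well. STK40, a pseudokinase related to Tribbles that also binds COP1, was lower in AdSIRT4 without overlap, at 59.3 ± 1.40 CPM (SD, n = 3) and 51.0 ± 3.76 CPM, a log2 difference of -0.22 (adjusted p 0.630). CEBPG, a C/EBP factor without an activation domain, had a log2 fold change of -0.16, and DDIT3, which encodes CHOP, of -0.24. CEBPZ, listed for its symbol only, was higher without overlap, with a log2 fold change of 0.15. CEBPE was not tested, with no counts in 5 samples and 2 in AdSIRT4 replicate 2. Of the 10 tested genes of this list, the 6 genes included, 8 had a negative log2 fold change and 2 a positive one (TRIB1 and CEBPZ). Without overlap 2 were higher and 2 lower, against 9.66% and 9.77% of all genes. The median was -0.18 (-0.24 without AdSIRT4 replicate 1, -0.19 with the length trend removed) against 0.021 for all genes tested.

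The pathway around these genes was read from 4 more lists, in which no gene passed the adjusted threshold with all 6 samples. For each list the counts at an unadjusted p under 0.05 are given, beside 4.43% higher and 3.5% lower of all genes, and the adjusted calls without AdSIRT4 replicate 1, beside 3.37% higher and 3.34% lower of all genes in that fit. The genes given with values are those of smallest p in each list, so that groups without overlap are largely fixed by the choice. With the replicate block, where 4.08% of all genes were higher and 3.12% lower at that unadjusted p, the counts changed as given for the Tribbles partners and the ATF4 and CHOP targets and stayed the same for the others. The first holds 19 partners of Tribbles proteins (COP1 and its ligase complex, AKT, MAPK kinases, acetyl-CoA carboxylases, SQSTM1, FOXO factors). All 19 were tested, 2 were higher and 0 lower (0 and 0 with the replicate block), and the median log2 fold change was -0.024 (0.013 without AdSIRT4 replicate 1, -0.0021 with the length trend removed). Without that replicate 2 of the 19 passed the adjusted threshold, CUL4A and SQSTM1, and both rose, as did 3.37% of all genes. CUL4A, the cullin of the COP1 ligase, was measured at 73.9, 73.9 and 73.5 CPM in AdCtrl and 86.9, 81.8 and 88.2 CPM in AdSIRT4 (log2 fold change 0.22, adjusted p 0.612). SQSTM1, the autophagy receptor p62 that binds TRIB3, had 370.6 ± 16.4 CPM (SD, n = 3) and 460.8 ± 54.7 CPM (0.31, adjusted p 0.612). MAP2K1, the kinase MEK1, had a log2 fold change of 0.22, and ACACB, a carboxylase of fatty acid metabolism, of -0.37, but only -0.14 without AdSIRT4 replicate 1.

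Of 20 upstream regulators and dimer partners of C/EBP factors, 2 were higher and 2 lower, with a median of -0.030 (0.057 without AdSIRT4 replicate 1, 0.0062 with the length trend removed). SOCS3, the feedback inhibitor of IL-6 signaling, was measured at 67.3, 68.1 and 73.5 CPM in AdCtrl and 50.9, 58.4 and 54.1 CPM in AdSIRT4 (log2 difference -0.35 ± 0.0941 (SE), adjusted p 0.494). IL6R, the IL-6 receptor, was lower too, at 31.6 ± 3.23 CPM (SD, n = 3) and 23.1 ± 3.57 CPM (-0.45, adjusted p 0.553). ATF3, a stress-induced bZIP factor, was measured at 24.6, 28.0 and 29.6 CPM in AdCtrl and 32.8, 36.4 and 38.2 CPM in AdSIRT4 (0.39, adjusted p 0.531), and ATF5 had a log2 fold change of 0.44. Over the list the groups did not overlap in 2 genes that were higher and 5 that were lower, these 4 included, against 9.66% and 9.77% of all genes. In the fit without that replicate 5 genes of the list passed the adjusted threshold, against 6.71% of all genes: ATF3, NFKB1 and RELA rose, and IL6R and SOCS3 fell.

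The list of acute-phase and inflammation genes that C/EBPβ and C/EBPδ are known to activate had mostly positive log2 fold changes. Of 26 genes 17 were tested, the untested being CSF3, HP, ORM1, ORM2, CRP, FGA, FGG, SERPINA3 and TNFAIP6. Of the 17, 4 were higher at an unadjusted p under 0.05 and 0 lower, 15 had a positive log2 fold change and 2 a negative one, and the median was 0.26 (0.20 without AdSIRT4 replicate 1, 0.25 with the length trend removed). IL6, the cytokine of the acute-phase response, was measured at 19.2, 19.6 and 25.1 CPM in AdCtrl and 43.5, 37.0 and 43.7 CPM in AdSIRT4, so that every AdSIRT4 sample lay above the AdCtrl samples (log2 difference 0.96 ± 0.140 (SE), adjusted p 0.255). LCN2, a secreted protein of injured tubules, had 363.0 ± 34.0 CPM (SD, n = 3) and 561.2 ± 78.7 CPM, with a log2 fold change of 0.63. CXCL8, a neutrophil chemokine, had 659.1 ± 84.1 and 1010 ± 160 CPM (0.62), and SOD2, the mitochondrial superoxide dismutase, 1571 ± 109 and 2224 ± 229 CPM (0.50). Of the 17 genes 5 were higher without overlap, these 4 included, and 0 lower, against 9.66% and 9.77% of all genes. When that replicate was left out, IL6, CXCL8, LCN2, SOD2 and complement C3 rose by the adjusted threshold (3.37% of all genes did) and no gene of the list fell (3.34% of all genes). Several genes of this list, IL6 and CXCL8 among them, are also known targets of NF-κB. Which factor acts on them here was not tested.

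The list of ATF4 and CHOP targets, to which TRIB3, ATF3 and CEBPG belong, had 26 of 27 genes tested (FGF21 was not). With all samples 1 was higher and 8 were lower (1 and 12 with the replicate block), 21 had a negative log2 fold change and 5 a positive one, and the median was -0.29 (-0.25 without AdSIRT4 replicate 1, -0.31 with the length trend removed). DDIT4, an inhibitor of mTORC1 that is also induced by hypoxia, was measured at 162.1, 155.4 and 175.2 CPM in AdCtrl and 128.8, 109.6 and 126.9 CPM in AdSIRT4 (log2 difference -0.43 ± 0.106 (SE), adjusted p 0.494). SESN2, a stress-induced inhibitor of mTORC1, had 80.7 ± 4.95 CPM (SD, n = 3) and 52.8 ± 11.2 CPM (-0.61). CTH, which makes cysteine, had 16.7 ± 2.56 and 10.7 ± 1.43 CPM (-0.64), and PSAT1, of serine synthesis, 107.8 ± 8.48 and 82.9 ± 2.29 CPM (-0.38). Of the 26 genes 2 were higher and 10 lower without overlap, these 4 included, against 9.66% and 9.77% of all genes. Leaving that replicate out, 6 genes of the list fell by the adjusted threshold (SESN2, VLDLR, DDIT4, PSAT1, PHGDH and CTH) and 2 rose (ATF3 and STC2), against 3.34% and 3.37% of all genes. ATF4 itself had a log2 fold change of 0.11 (adjusted p 0.843).

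**Figure D5:**
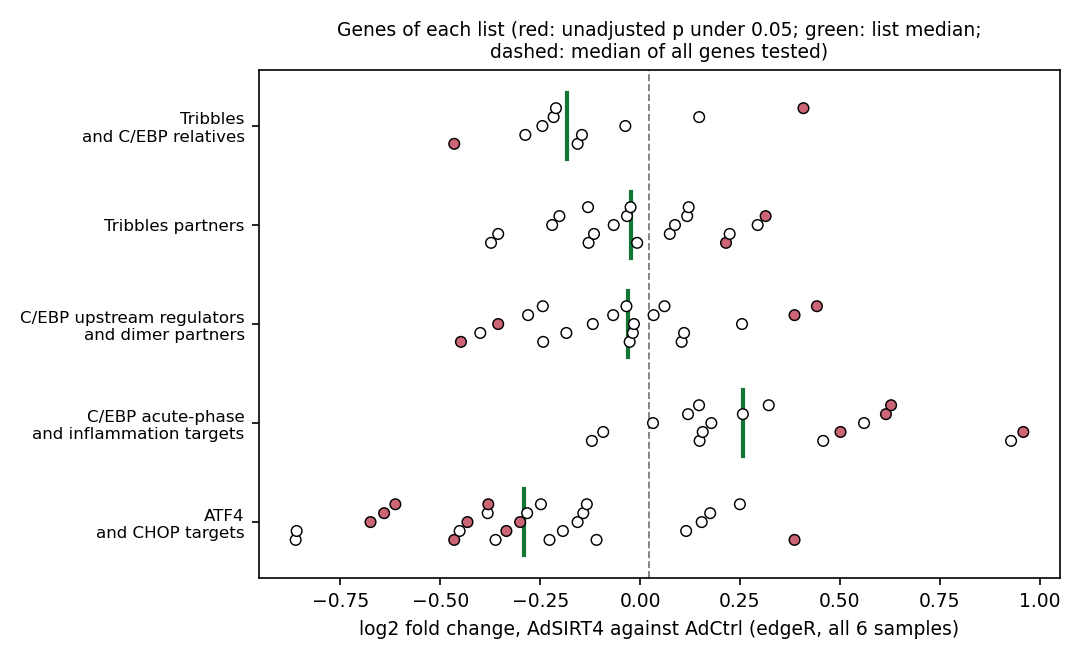
Log2 fold change of AdSIRT4 against AdCtrl for each tested gene of the 5 lists (points, red for an unadjusted p under 0.05), with the list median in green and the median of all tested genes dashed. The medians are -0.18 for the relatives, -0.024 for the Tribbles partners, -0.030 for the upstream regulators, 0.26 for the acute-phase and inflammation genes and -0.29 for the ATF4 and CHOP targets.

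The genes whose pattern over the 6 samples came closest to each member were found by the root-mean-square difference of centred log2 CPM among 17719 genes. TRIB1 was closest to RIN2 (0.0259) and LOC112268469 (0.0411), and TRIB3 to the non-coding RNAs DNAJC3-DT (0.0212) and PARTICL (0.0585). TRIB2 was closest to TMEM86A (0.0634) and CDK20 (0.0742). CEBPA was closest to SMIM10 (0.0256) and ZCCHC3 (0.0303), and CEBPB to FAM72C (0.0436) and KAZALD1 (0.0442), of which FAM72C has near-identical copies that can share its reads. CEBPD was closest to HOXA9 (0.0461) and HOTAIRM1, a non-coding RNA of the same HOXA cluster (0.0465). RIN2, an endosomal RAB5 regulator, was measured at 43.0, 43.4 and 43.0 CPM in AdCtrl and 62.1, 56.6 and 51.5 CPM in AdSIRT4. HOXA9 was measured at 121.0, 128.7 and 120.7 CPM in AdCtrl and 142.3, 90.9 and 87.7 CPM in AdSIRT4, with the same high replicate 1 as CEBPD. DNAJC3-DT, LOC112268469, PARTICL and TMEM86A had only 0.730 to 1.95 CPM in any sample, so that few counts stand behind their likeness.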

How the data were processed

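Per the labels, 6 RNA-seq samples of HK2 cells were grouped by virus (3 AdCtrl, 3 AdSIRT4, all with TGF-β1). The authors deposited raw counts for 38100 genes, and for the same genes another table that names no unit. The values of the authors' second table were read as FPKM, since 12226 of 15894 genes had the same implied length in all samples within 5%. The submitters' processing notes name hg38, fastp 0.21.0, HISAT2 2.1.0, StringTie 2.1.5 and DESeq2 1.30.1, without their roles.

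Counts were tested with edgeR 4.0.16 in R 4.3.3 (filterByExpr with a minimum count of 10, TMM, robust quasi-likelihood test, Benjamini-Hochberg adjustment over 17720 genes, threshold 0.05). Total counts were 41537353 to 85684748, and their number limits precision by counting error alone. On simulated counts, with 200 of 17491 genes changed, 182 were recovered with 3 false calls. Alternatives used DESeq2 1.42.0, RLE, other count filters, limma 3.58.1 (voom with sample quality weights, or log2(FPKM + 1) and log2(FPKM + 0.1)), a lowess trend over log2 length removed per library (span 0.3), the replicate number as a block, and each sample left out. Same-numbered samples of the groups deviated together (Pearson correlation 0.178, 0.159 and 0.176 across genes, against -0.188 to 0.0298 for other pairs), so the numbers were taken to pair the samples, from the data alone. The chi-square per gene between replicates was 7.92 to 173, so that no sample was a copy. Figures and tables were made with Python 3.11.15, pandas 2.3.3, scipy 1.17.1 and matplotlib 3.10.9. RefSeq promoter windows were searched on both strands.

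The genes and lists were chosen with earlier results of these data known. Genes named were the 6 genes, the 4 tested genes of each list with the smallest unadjusted p, the 2 nearest genes of each member and SIRT4. NFKB1, RELA, C3, VLDLR, PHGDH, STC2, ATF4 and the other relatives were named after their values were seen. No set test was run.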

Additional observations from a re-analysis of the deposited data

How the results depend on the processing

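The count of genes called among all genes was 2 with all samples, and also 2 with RLE scaling. It was 206 with DESeq2, 1446 with voom and sample quality weights, 12 with the length trend removed, 5 with genes of at least 1 count, 4 with at least 10 counts in every sample, 5 with limma on log2(FPKM + 0.1) and 5 with a mean FPKM of at least 1. With the replicate block, which pairs samples by number, it was 1, and no call by the adjusted threshold on the 6 genes or the lists changed with the block. At an unadjusted p under 0.05 the Tribbles partners went from 2 higher to 0, and the ATF4 and CHOP targets from 8 lower to 12. Leaving out 1 sample gave 0 to 1227 genes, with 1227 only without AdSIRT4 replicate 1 and 0 without any of the AdCtrl samples. Of the 6 genes, none was called with all samples, 1 with DESeq2 (TRIB1, 0.41), 5 with voom (TRIB1 0.38, TRIB3 -0.46, CEBPA -0.28, CEBPB -0.47, CEBPD -0.50) and 0 to 3 when 1 sample was left out. The log2 fold changes then ran from 0.33 to 0.49 in TRIB1, -0.13 to 0.12 in TRIB2, -0.58 to -0.32 in TRIB3, -0.27 to -0.065 in CEBPA, -0.46 to -0.17 in CEBPB and -0.52 to -0.073 in CEBPD. TRIB2 changed sign with the length trend removed (0.013), without AdCtrl replicate 1 (0.021) and without AdSIRT4 replicate 3 (0.12). The ratio of CEBPB to CEBPD did so without AdCtrl replicate 3 (0.029) and without AdSIRT4 replicate 1 (0.060), and ran from -0.14 to 0.060. Called list genes with DESeq2 were 1 relative, 4 inflammation genes and 3 ATF4 and CHOP targets. With voom they were 5 relatives, 6 upstream regulators, 5 inflammation genes and 11 ATF4 and CHOP targets. Leaving out 1 sample gave 0 to 3, 0 to 5, 0 to 5 and 0 to 8 of these lists and 0 to 2 Tribbles partners. The list counts under these settings, and the ratios with the length trend removed, were chosen after seeing the data. The causes were not tested. With 2 samples in a group, the spread is pooled with the other group. TRIB2 had the fewest counts of the 6 genes (110 to 250 per sample).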
